A study of Mus musculus with 37 samples.

Results

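The proteasome genes were followed through the response of macrophages to a TLR4 agonist. Members were all genes of the expression table whose symbol is Psm, 1 letter from a to g and a number, which gave 48 of 24016 genes. Of these, 5 were treated as inducible (Psmb8, Psmb9, Psmb10, Psme1 and Psme2) and 43 as other members, which are the standard subunits, activators, the inhibitor and the dedicated assembly chaperones. A further 2 symbols start in the same way and go on, Psmc3ip and Psme2b, and were not members. The cells were bone marrow-derived macrophages (BMDMs), grown with M-CSF for 6 days from the marrow of male mice aged 6 to 9 weeks. They came either from wild-type (WT) C57BL/6J mice or from Arntl-/- mice, which lack the clock gene Arntl (encoding Bmal1) in the whole body. Cells of both genotypes received Kdo2-lipid A (KLA), a pure TLR4 ligand from the lipid part of bacterial endotoxin, and polyA RNA was sequenced at 0, 6, 24 and 48 h. Each of the 8 conditions had 1 library, so the spread between replicates of a condition is unknown. No test between conditions was run and no p-value is given. The labels and the study's methods name purchased C57BL/6J males as the WT mice, whereas its results text speaks of littermates. The methods place the Arntl-/- mice on a C57BL/6 background. If the WT mice were purchased, a difference of colony between the genotypes cannot be told apart from the deletion.

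The proteasome is the protease that breaks down ubiquitin-tagged proteins. Its barrel-shaped core particle is built from outer rings of alpha subunits and inner rings of beta subunits, of which Psmb5, Psmb6 and Psmb7 carry the active sites. In cells of the immune system, and in other cells after interferon, these can be replaced during assembly by Psmb8, Psmb9 and Psmb10, which form the immunoproteasome and favour peptides that suit MHC class I molecules. The core is opened by activators: the regulatory particle, made of the Psmc ATPases and the Psmd subunits, which handles ubiquitinated proteins, or PA28, a ring of Psme1 and Psme2 that is likewise interferon-inducible and opens the core to peptides without ubiquitin.

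Reads on genes ranged from 8587560 to 27036783 per library and were deepest in WT cells at 6 h and shallowest in both genotypes at 48 h. Values are scaled FPKM, that is reads per kb of exon and per 10000000 reads as deposited, divided by a size factor of the library (0.918 to 1.13). The targeted gene Arntl was at 32.3 to 38.7 in the 4 WT libraries and at 11.3 to 20.2 in the 4 Arntl-/- libraries. The 7 macrophage markers found in the table (among them Csf1r, Emr1 and Lyz2) were expressed in every library, each at 309.9 or more. T cell markers (Cd3e, Cd3d) and neutrophil markers (Mpo, Elane) had at most 2 reads in any library, and the B cell marker Cd79a at most 20 reads. Stromal collagen genes and Dcn were present throughout, with a summed level of 383 to 1066 in WT and 297 to 650.3 in Arntl-/- cells, and their part in the results was not tested. In whole-culture RNA, fewer cells that express a gene and less of its RNA per cell cannot be told apart.

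Proteasome genes are abundant, and abundant genes shifted together between these libraries. Of the 45 members that passed the filter on low values, 17 were among the 972 genes with the highest mean level. Against the average over all 8 libraries, the median log2 deviation of these 972 genes was -0.36 in the WT library at 6 h, and 0.31 and 0.25 in the WT and Arntl-/- libraries at 48 h. The median of the inducible members deviated by -0.33, 0.31 and 0.34 in the same 3 libraries. That of the other 40 members deviated by -0.12 and 0.15 in the WT libraries and lay close to 0 in the Arntl-/- one (-0.000869). The Arntl-/- library at 0 h, the reference of the Arntl-/- changes with KLA, was shifted too. There the 972 genes, the inducible and the other members had median deviations of -0.20, -0.30 and -0.12. The deposited counts allowed at most 3 reads per position, and the inducible members had 1.35 to 3.13 reads per base of exon in WT cells at 6 h, but 0.456 to 1.48 in WT and 0.486 to 1.39 in Arntl-/- cells at 48 h. The part of this limit in the results was not tested. Changes are therefore also given after subtraction of each library's trend with expression level (level-corrected values).

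**Figure D1:**
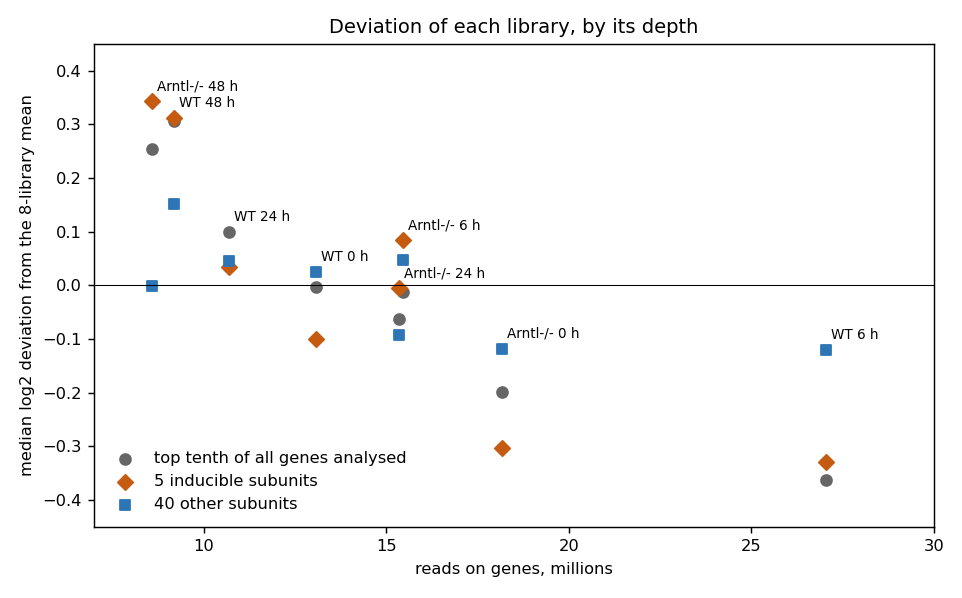
Median log2 deviation of each library from the mean of the 8 libraries (y axis) against its reads on genes (x axis), for the 972 most highly expressed genes (circles), the 5 inducible members (diamonds) and the 40 other members analysed (squares). The deepest library, WT at 6 h, lies lowest for these genes and the inducible members (-0.36 and -0.33), and the 2 shallowest, both at 48 h, lie highest for these groups.

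The 5 inducible genes sit at 3 places in the genome (mm9 coordinates). Psmb9 (NM_013585, chr17:34319044-34324275, minus strand) and Psmb8 (NM_010724, chr17:34335140-34338399, plus strand) lie in the MHC region, interleaved with the peptide transporter genes Tap1 and Tap2, all 4 within 34223 bases. The start sites of Psmb9 and Tap1, on opposite strands, are 226 bases apart. Psme1 (NM_011189, chr14:56197331-56200364, plus strand) and Psme2 (NM_011190, chr14:56206277-56209858, minus strand) are neighbours whose facing ends are 5913 bases apart. Psmb10 (NM_013640, chr8:108459628-108462292, minus strand) stands alone. Because these genes are known as interferon targets, the bases around their start sites are shown, 250 before and 50 from the start site onwards, read 5′ to 3′ on the gene's strand from the mm9 genome: chr17:34334890-34335189 for Psmb8, chr17:34324226-34324525 for Psmb9, chr8:108462243-108462542 for Psmb10, chr14:56197081-56197380 for Psme1 and chr14:56209809-56210108 for Psme2. Capitals mark matches to 4 short motifs searched on both strands: an interferon-stimulated response element-like GAAANNGAA, an interferon-gamma-activated site-like TTCNNNGAA, an NF-kB-like GGGNNNTTC and an antioxidant response element-like TGACNNNGC.
Psmb8: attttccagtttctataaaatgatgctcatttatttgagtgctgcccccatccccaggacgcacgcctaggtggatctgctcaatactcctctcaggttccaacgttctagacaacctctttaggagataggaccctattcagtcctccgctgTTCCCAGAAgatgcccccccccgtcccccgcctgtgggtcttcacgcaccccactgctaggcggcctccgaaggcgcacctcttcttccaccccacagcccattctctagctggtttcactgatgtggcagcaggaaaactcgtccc
Psmb9: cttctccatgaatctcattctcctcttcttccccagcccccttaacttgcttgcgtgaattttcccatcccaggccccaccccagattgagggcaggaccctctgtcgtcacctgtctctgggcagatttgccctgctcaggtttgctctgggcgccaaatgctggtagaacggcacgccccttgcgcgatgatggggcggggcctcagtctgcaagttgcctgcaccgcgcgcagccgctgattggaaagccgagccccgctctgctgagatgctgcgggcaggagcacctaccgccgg
Psmb10: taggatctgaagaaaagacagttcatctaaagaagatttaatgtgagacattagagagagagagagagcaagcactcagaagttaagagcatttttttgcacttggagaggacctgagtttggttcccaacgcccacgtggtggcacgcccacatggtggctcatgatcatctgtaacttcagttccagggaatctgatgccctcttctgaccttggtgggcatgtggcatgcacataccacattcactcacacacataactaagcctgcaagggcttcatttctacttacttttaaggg
Psme1: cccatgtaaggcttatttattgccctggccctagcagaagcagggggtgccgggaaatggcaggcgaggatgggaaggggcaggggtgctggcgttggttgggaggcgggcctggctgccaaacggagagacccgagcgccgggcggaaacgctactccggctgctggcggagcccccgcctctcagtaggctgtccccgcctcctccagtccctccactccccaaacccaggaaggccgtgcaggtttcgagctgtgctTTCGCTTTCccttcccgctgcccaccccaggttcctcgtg
Psme2: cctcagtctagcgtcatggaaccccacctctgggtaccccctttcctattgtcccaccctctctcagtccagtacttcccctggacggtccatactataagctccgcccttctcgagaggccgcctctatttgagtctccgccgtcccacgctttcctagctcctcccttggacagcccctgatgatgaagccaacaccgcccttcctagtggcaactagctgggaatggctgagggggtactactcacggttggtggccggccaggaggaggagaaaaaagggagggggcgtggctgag

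In these windows, 1 match was found in Psmb8 (TTCCCAGAA, interferon-gamma-activated site-like, at position -97 from the start site) and 1 in Psme1 (TTCGCTTTC, the complement strand of the interferon-stimulated response element-like motif, at position 11). Over the windows of 23954 genes, the interferon-stimulated response element-like motif was present in 8.14% and the interferon-gamma-activated site-like motif in 7.95%. Among the 48 members they were present in 8 (16.7%) and 3 (6.25%). The NF-kB-like motif was present in 6 of 48 members (12.5%) and in 13.9% of all genes, and in 0 of the 5 inducible genes. The antioxidant response element-like motif, the kind of site that the proteasome regulators Nfe2l1 and Nfe2l2 bind, was present in 8 of 48 (16.7%) and in 12.8% of all genes. It occurred in Psmb2, Psmb5 and Psmb6 among others and in 0 of the 5 inducible genes. A match to so short a motif is a description of the letters in the window.

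Psmb8, the inducible counterpart of Psmb5, was the most abundant inducible gene. Its scaled FPKM was 829 before KLA in WT cells, then 640.0, 885 and 1106 after 6, 24 and 48 h, while Arntl-/- cells had 676, 831, 760.1 and 1059. In both genotypes the highest value was at 48 h, and the lowest was at 6 h in WT but at 0 h in Arntl-/- cells. Relative to 0 h, Psmb8 at 48 h differed by a log2 change of 0.42 (95% counting interval 0.33 to 0.51) in WT and 0.65 (0.56 to 0.74) in Arntl-/- cells, the latter past 1.5-fold. Level-corrected, these were 0.14 and 0.23, both short of 1.5-fold. Intervals of this kind are exact and cover the counting of reads in 2 libraries only, and not variation between cultures or mice.

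Psmb9, the counterpart of Psmb6, changed least of the 5. It was at 403, 379, 351 and 412 in WT and at 357, 424, 384 and 379 in Arntl-/- cells. Over all 8 libraries the highest value was 1.21 times the lowest. The log2 change at 48 h was 0.03 (-0.14 to 0.21) in WT and 0.09 (-0.09 to 0.26) in Arntl-/- cells, so that both counting intervals included 0.

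Psmb10, the counterpart of Psmb7, was the least abundant of the 5 and had the highest level at 48 h in each genotype. It was at 241, 276, 266 and 341 in WT and at 229, 356, 299 and 394 in Arntl-/- cells. All 6 libraries with KLA were above both libraries without it. The log2 change at 48 h was 0.50 (0.34 to 0.66) in WT and 0.78 (0.63 to 0.93) in Arntl-/- cells, and at 6 h it was 0.19 (0.06 to 0.33) and 0.64 (0.51 to 0.77). Level correction left the 48 h changes at 0.44 and 0.70 and the 6 h changes at 0.27 and 0.57.

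**Figure D2:**
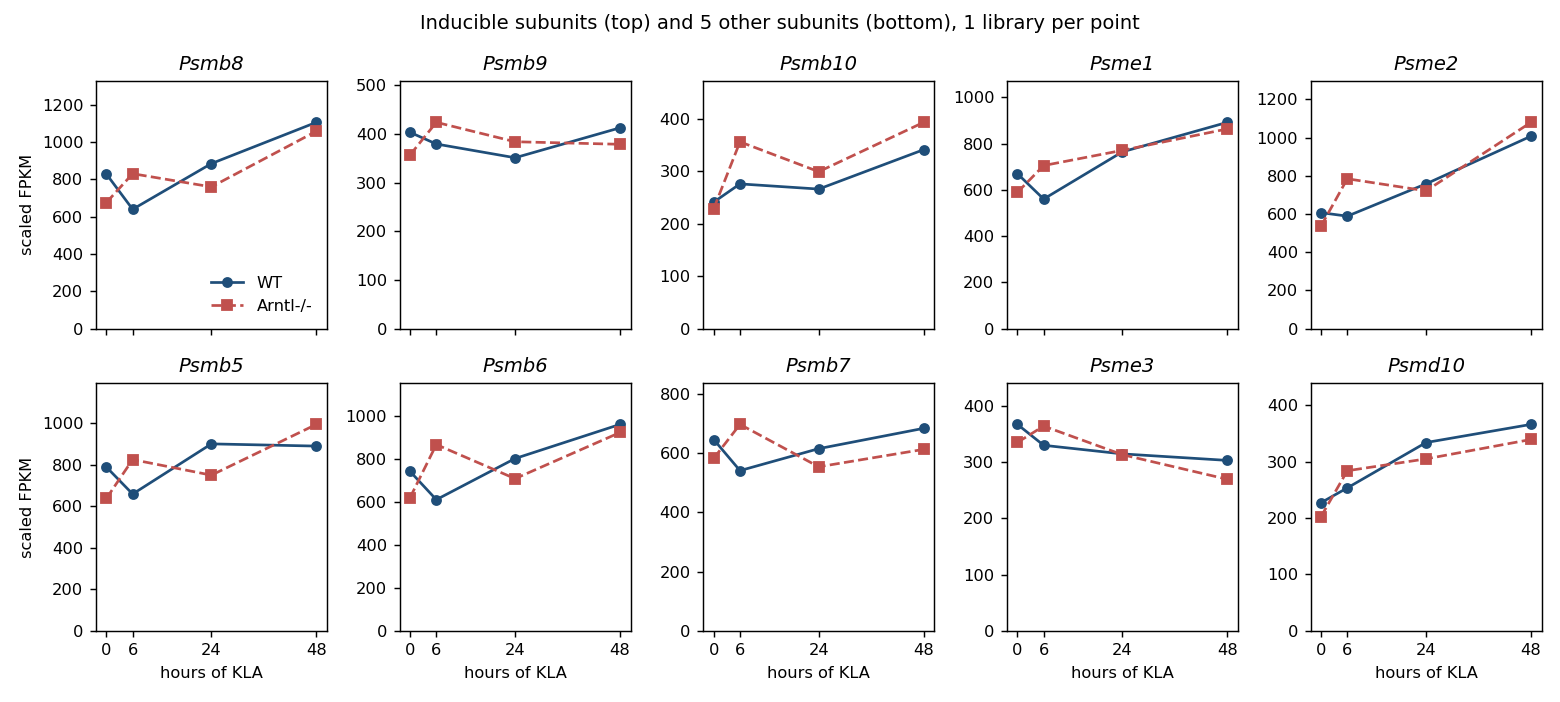
Scaled FPKM (y axis, from 0) against hours of KLA (x axis) for the 5 inducible genes (top row) and for 5 other members (bottom row: Psmb5, Psmb6, Psmb7, Psme3, and Psmd10, shown because it passed 1.5-fold in 3 of the 6 comparisons with 0 h), in WT (circles, solid lines) and Arntl-/- cells (squares, dashed lines), 1 library per point. Psmb8, Psme1 and Psme2 reach their highest values at 48 h in both genotypes, Psmb9 stays between 351 and 424, and Psme3 is lowest at 48 h.

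Both PA28 genes of the interferon-inducible ring were highest at 48 h. Psme1 was at 669.8, 560.3, 764 and 892 in WT and at 589, 705, 771 and 863 in Arntl-/- cells. Psme2 was at 607, 589, 758 and 1007 in WT and at 537, 784, 721 and 1079.7 in Arntl-/- cells. Before level correction Psme2 had the largest change of the 45 members analysed at 48 h in either genotype, with log2 0.73 (0.61 to 0.85) in WT and 1.01 (0.90 to 1.12) in Arntl-/- cells, or 1.66-fold and 2.01-fold. Psme1 changed by 0.41 (0.30 to 0.53) and 0.55 (0.44 to 0.66), short of 1.5-fold. Level-corrected, Psme2 changed by 0.48 and 0.63 and Psme1 by 0.17 and 0.19. The assembly chaperone Psmd10 then exceeded Psme2 in both genotypes, and Psmb10 did in Arntl-/- cells (0.70). The decrease of Psmg2 was then also larger in size than the change of Psme2 (-0.49 and -0.76). Of the 50-base stretches of the Psme2 transcript, 59.3% are also found in the transcript of its copy Psme2b, so reads of the pair may be split or shared and the level of Psme2 is uncertain to that extent. Psme2b itself was at 134.5, 114, 118 and 113 in WT and at 161, 193, 171 and 175 in Arntl-/- cells, with log2 changes at 48 h of -0.25 (-0.53 to 0.03) and 0.12 (-0.11 to 0.34).

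Psme3, which forms a nuclear PA28 ring of its own, moved the other way. It was at 368, 330.4, 315 and 303 in WT and at 335, 365, 314 and 269.8 in Arntl-/- cells, so that both 48 h libraries were below the other 6. Its log2 change at 48 h was -0.28 (-0.39 to -0.17) in WT and -0.31 (-0.42 to -0.21) in Arntl-/- cells, and -0.35 and -0.42 after level correction. The mean of Psme1 and Psme2 divided by Psme3, a ratio within each library that needs no size factor, followed the times 0, 6, 24 and 48 h with 1.74, 1.74, 2.42 and 3.13 in WT and with 1.68, 2.04, 2.38 and 3.60 in Arntl-/- cells. It was therefore 1.80 times higher at 48 h than at 0 h in WT and 2.14 times higher in Arntl-/- cells, or 1.60 and 1.79 times after level correction. Psme2 relative to Psme1 was 0.906 at 0 h and 1.13 at 48 h in WT, and 0.912 and 1.25 in Arntl-/- cells.

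Whether the inducible catalytic subunits gained on those they replace was read from the share of the inducible gene in the FPKM of each pair, again within a library. Before KLA, Psmb8 made up 51.2% (95% counting interval 49.6 to 52.9) of Psmb8 and Psmb5 in WT and 51.5% (49.9 to 53.0) in Arntl-/- cells. Psmb9 made up 35.1% (33.1 to 37.2) and 36.5% (34.6 to 38.3) of Psmb9 and Psmb6, and Psmb10 27.2% (25.4 to 29.2) and 28.2% (26.6 to 29.9) of Psmb10 and Psmb7. RNA of both forms was thus present before KLA.

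The 3 shares did not move together with KLA. The Psmb10 share after 6, 24 and 48 h was 33.8, 30.2 and 33.3% in WT and 33.9, 35.1 and 39.1% in Arntl-/- cells, above the share at 0 h each time. At 24 h in WT cells its counting interval (28.1 to 32.5%) overlapped that at 0 h. The Psmb9 share was 38.3, 30.4 and 29.98% in WT and 32.8, 35.1 and 29.0% in Arntl-/- cells, below the share at 0 h in all but the WT library at 6 h. Its intervals at 6 h in WT (36.8 to 39.7%) and at 24 h in Arntl-/- cells (33.2 to 37.0%) overlapped those at 0 h. The Psmb8 share was 49.3, 49.6 and 55.4% in WT and 50.2, 50.3 and 51.6% in Arntl-/- cells, and its WT interval at 48 h lay above those of the 3 earlier WT libraries. At 48 h the counting intervals of the genotypes did not overlap for Psmb8 (53.5 to 57.3% in WT and 49.6 to 53.49% in Arntl-/- cells), though they adjoined, nor for Psmb10 (31.0 to 35.7% and 36.6 to 41.7%). Level correction moved the difference of the Psmb10 share between 48 and 0 h in Arntl-/- cells from 10.9 to 14.4 percentage points, and that of the Psmb9 share from -7.44 to -3.98. Summed over the 3 pairs, the inducible genes made up 39.3 to 42.3% of the FPKM in the 8 libraries, 40.4% and 40.7% at 0 h and 42.3% and 42.0% at 48 h.

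**Figure D3:**
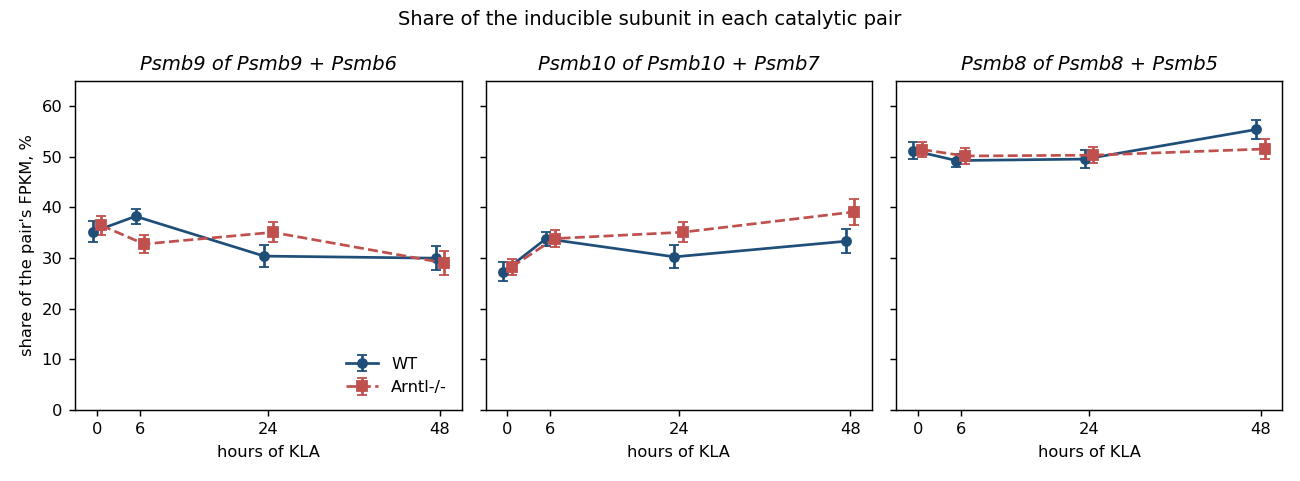
Share of the inducible gene in the summed FPKM of each catalytic pair, in percent (y axis, from 0), against hours of KLA (x axis), in WT (circles) and Arntl-/- cells (squares), 1 library per point, with bars for the exact 95% counting interval. The Psmb10 share is lowest at 0 h in both genotypes (27.2 and 28.2%), the Psmb9 share is lowest at 48 h (29.98 and 29.0%), and the Psmb8 share is highest in WT cells at 48 h (55.4%) and between 49.3 and 51.6% in the other libraries.

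For each comparison, members were counted as past a change of 1.5-fold and set beside the same count over all genes analysed, which serves as the background. At 6 h in WT cells, 4.31% of all genes were at least 1.5-fold higher than at 0 h and 3.29% lower. Of the members, 0 of 5 inducible and 1 of 40 other genes (Psmg3, higher) passed. Of the inducible genes, 1 of 5 (Psmb10) was above its level at 0 h, beside 45.4% of all genes, but 4 of 5 were with level correction and 3 of 5 with length correction and as deposited. At 24 h in WT cells (7.94% of all genes higher, 7.91% lower), 0 of 5 inducible and 1 of 40 other genes (Psmf1, lower, log2 -0.59) passed, and Psmf1 was short of 1.5-fold with level correction (-0.54), length correction (-0.56) and a pseudocount of 1 (-0.58). At 48 h in WT cells (12.7% higher, 14.3% lower), 1 of 5 inducible genes (Psme2, higher) and 3 of 40 others passed, of which Psmd8 and Psmd10 were higher and Psmg2 was lower. In WT cells 4 of 5 inducible genes were above their level at 0 h at 24 h and 5 of 5 at 48 h, beside 49.9% and 50.3% of all genes. The count at 48 h was 4 of 5 as deposited, with upper-quartile scaling and with level and length correction. Of the 3 other members past 1.5-fold at 48 h, Psmd8 was short of it with level and length correction, as deposited and with upper-quartile scaling (0.31 to 0.57), Psmg2 with level correction and a pseudocount of 1 (-0.49 and -0.58), and Psmd10 as deposited (0.55).

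In Arntl-/- cells all 5 inducible genes were above their level at 0 h at each of the later times, beside 50.9%, 52.0% and 49.4% of all genes. The 3 comparisons share that one library as reference. At 48 h, 4 of 5 were above it with level and length correction and as deposited. At 6 h (2.79% of all genes higher, 2.58% lower), 1 of 5 inducible (Psmb10) and 1 of 40 other genes (Psmg3) were past 1.5-fold, both higher. Both were close to that limit. The log2 change of Psmb10 (0.64) was short of it as deposited and with upper-quartile scaling (0.58 in each) and with level and length correction (0.57 and 0.55), and that of Psmg3 (0.60) in the same settings other than level correction (0.54, 0.53 and 0.43). At 24 h (7.35% higher, 8.65% lower), 0 of 5 inducible genes and 1 of 40 others (Psmd10, higher, log2 0.59) passed, and Psmd10 was short of 1.5-fold as deposited (0.52), with upper-quartile scaling and level correction (0.54 in each) and with length correction (0.58). At 48 h (14.8% higher, 16.7% lower), 3 of 5 inducible genes (Psmb8, Psmb10 and Psme2, all higher) and 4 of 40 others passed, with Psma7, Psmb5 and Psmd10 higher and Psmg2 lower. Psma7 and Psmb5 were short of it as deposited, with upper-quartile scaling and with level and length correction (0.25 to 0.54 and 0.24 to 0.57), and Psmd10 as deposited (0.57). At 48 h the other members that were higher (2 and 3 of 40) made up a smaller share than the background in both genotypes. Of the inducible genes, the 1 of 5 in WT cells is a single gene, Psme2, too few to be set apart from the background, and its call was lost with level and length correction (0.48 and 0.58). The 3 of 5 in Arntl-/- cells were a larger share than the background, with only 5 genes behind it. The call of Psmb8 in Arntl-/- cells was lost with level correction (log2 0.23), as deposited (0.47), with upper-quartile scaling (0.57) and with length correction (0.53), and those of Psmb10 and Psme2 were not. Level-corrected, 0 of 5 inducible genes were past 1.5-fold in WT cells at 48 h.

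The median log2 change of the inducible genes took the values -0.09, 0.14 and 0.42 (WT, after 6, 24 and 48 h) and 0.30, 0.39 and 0.65 (Arntl-/-). That of the 40 other members was -0.18, -0.03 and 0.11 in WT and 0.15, 0.05 and 0.14 in Arntl-/- cells. The median of all genes analysed lay between -0.03 and 0.02 in these 6 comparisons. The inducible median was above that of the others by 0.09 to 0.51. The gap at 6 h in WT cells (0.0947) did not exceed the counting error there (a median half-width of 0.0948). The 3 comparisons within a genotype share 1 library at 0 h and are not separate observations. Level-corrected, the gap was 0.04 to 0.33 and at 6 h in WT cells smaller than the counting error, with inducible medians of 0.04, 0.11 and 0.17 in WT and 0.15, 0.26 and 0.23 in Arntl-/- cells against 0.00, -0.09 and -0.03 and 0.05, -0.06 and -0.05 for the others.

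**Figure D4:**
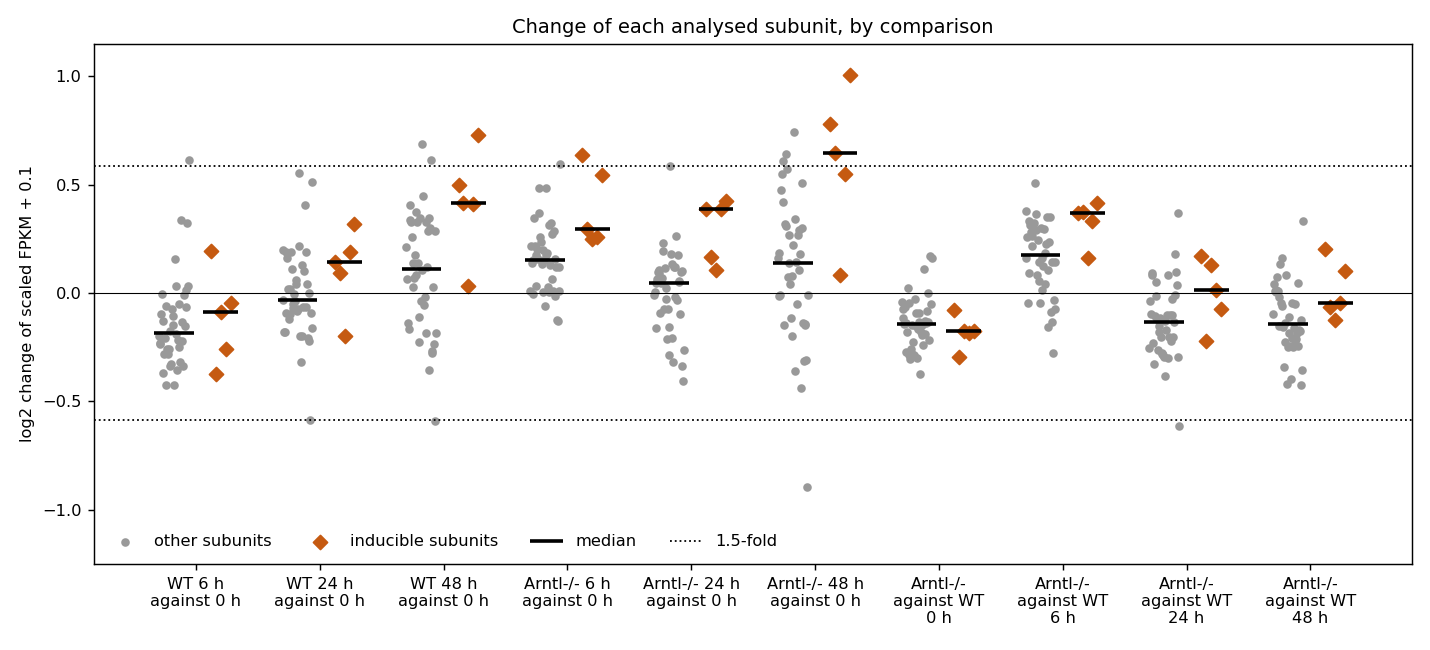
Log2 change of scaled FPKM plus 0.1 (y axis) for each of the 45 members analysed, in the 6 comparisons with 0 h and the 4 comparisons between genotypes (x axis). Grey circles are the 40 other members, diamonds the 5 inducible genes, bars their medians, and dotted lines 1.5-fold. The diamonds spread from 0.09 to 1.01 in Arntl-/- cells at 48 h, whereas in the comparisons between genotypes all 5 lie inside the dotted lines.

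The 2 libraries at 48 h were also set against the other 6, which needs no reference library. Both were above all 6 for 3 of 5 inducible genes (Psmb8, Psme1 and Psme2) and for 8 of 40 other members (Psma5, Psma6, Psma7, Psmb1, Psmb4, Psmb6, Psmd8 and Psmd10), beside 18.6% of all genes. Both were below for 0 of 5 inducible and 4 of 40 other members (Psmd6, Psmd9, Psme3 and Psmg2), beside 17.4% of all genes. After level correction Psmb8 and Psme2 of the inducible genes were still above, and 5 other members were (Psma5, Psma7, Psmb1, Psmd8 and Psmd10), beside 16.4% of all genes. Below were then 0 of 5 inducible and 6 of 40 other members (Psma4, Psmb4, Psmc4, Psmd6, Psme3 and Psmg2), beside 17.0%.

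The 45 members analysed were ordered by their mean scaled FPKM over the 8 libraries. Psmd8, a subunit of the regulatory particle, headed the list with a mean of 921 (range 687 to 1326), followed by Psmb8 with 848 (640.0 to 1106), Psmb5 with 806, Psmb6 with 781 and Psmd2 with 779. Psme2 (760.5) and Psme1 (727) ranked 7 and 8 of 45, Psmb9 (386) ranked 30 and Psmb10 (300.5) ranked 37. Over the 8 libraries the ranges of neighbours in this order overlapped, except between Psmd10 and Psmd5 and between Psme4 and Psmg1. Below the first of these gaps lay chaperones that help to build the complex and are not part of the finished particle (Psmd5, Psmd9, Psmg1, Psmg2 and Psmg3, means of 81.5 to 182), the activator Psme4 (144) and the inhibitor Psmf1 (56.7).

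**Figure D5:**
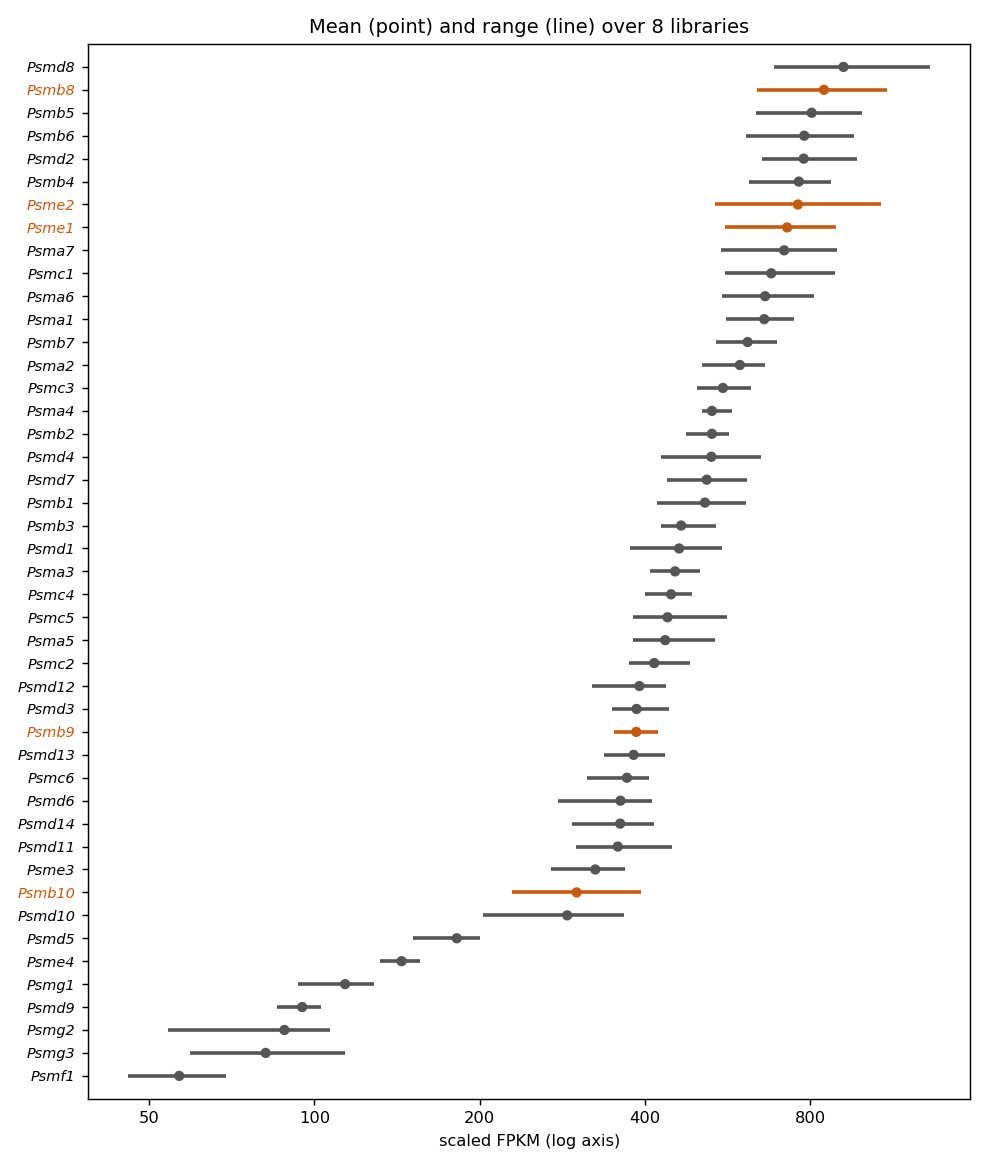
Mean scaled FPKM over the 8 libraries (points) and the range from lowest to highest library (lines) for the 45 members analysed, on a log axis, ordered by mean, with the 5 inducible genes in orange. Psmb8, Psme2 and Psme1 stand among the 8 highest, Psmb9 and Psmb10 lie at ranks 30 and 37, and Psmf1 and the assembly chaperones other than Psmd10 are, with Psme4, the lowest.

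The 7 alpha ring genes analysed had means of 436 to 718, and Psma4 was the steadiest of all 45 members, with its highest library 1.13 times its lowest. Median log2 changes of the alpha ring were -0.20, -0.03 and 0.21 in WT and 0.15, 0.05 and 0.18 in Arntl-/- cells. Psma7 was the one alpha gene past 1.5-fold, in Arntl-/- cells at 48 h (588 at 0 h and 897 at 48 h, log2 0.61, 0.50 to 0.72), and after level correction it changed by 0.25. For the structural beta genes Psmb1 to Psmb4 the medians were -0.25, -0.04 and 0.10 in WT and 0.17, 0.06 and 0.31 in Arntl-/- cells. Psma5 and Psmb3 share 38% and 26.9% of their 50-base stretches with Gm8394 and Gm4950, and their levels are uncertain in the way of Psme2.

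In scaled FPKM, the constitutive catalytic genes were not lower at 48 h of KLA than at 0 h. Psmb5, which carries the chymotrypsin-like site, was at 789, 659, 900.4 and 889.8 in WT and at 638, 825, 749.7 and 994 in Arntl-/- cells. Psmb6 was at 744, 612, 804 and 963 in WT and at 621, 869, 710.0 and 925 in Arntl-/- cells. Psmb7 was at 645, 540.4, 614 and 683 in WT and at 582, 696, 553 and 612 in Arntl-/- cells. All 3 thus had higher values at 48 h than at 0 h in both genotypes. For Psmb7 the counting intervals of the log2 change included 0 (-0.04 to 0.21 in WT and -0.05 to 0.20 in Arntl-/- cells). Level-corrected, Psmb6 changed by 0.11 and 0.19, Psmb5 by -0.10 and 0.24 and Psmb7 by -0.13 and -0.23.

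In the regulatory particle, the 6 ATPase genes had median changes of -0.16, -0.02 and 0.05 in WT and 0.14, -0.05 and 0.06 in Arntl-/- cells, with none past 1.5-fold. Of the 11 other structural genes only Psmd8 passed, in WT cells at 48 h (866 at 0 h and 1326 at 48 h, log2 0.61, 0.54 to 0.69), and it changed by 0.31 after level correction. In Arntl-/- cells Psmd8 was at 786 and 1118 at these times, short of 1.5-fold (log2 0.51). Psmd6 was at 413 and 323 in WT and at 377 and 278 in Arntl-/- cells, with both 48 h values the lowest of their genotype.

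The assembly chaperones differed from one another. Psmd10 (gankyrin), a chaperone of the ATPase ring also studied as an oncoprotein, was at 227, 253, 334 and 366 in WT and at 203, 284, 305 and 339 in Arntl-/- cells. Every later library was above both libraries at 0 h, in the order of time within each genotype. Its log2 change at 48 h was 0.69 (0.53 to 0.85) and 0.74 (0.59 to 0.90), and 0.64 and 0.67 after level correction. Psmg2, a chaperone of the alpha ring, was at 104, 107, 93.3 and 69.2 in WT and at 101, 101, 76.1 and 54.1 in Arntl-/- cells, with log2 changes at 48 h of -0.59 (-0.95 to -0.24) and -0.89 (-1.28 to -0.53). Level-corrected, Psmg2 changed by -0.49 and -0.76. Its partner Psmg1 did not share this pattern in WT cells, with 102, 128, 96.0 and 125. In Arntl-/- cells Psmg1 was at 115, 125, 124 and 93.3, also lowest at 48 h (log2 -0.31, -0.62 to -0.0015). Psmg3, which works in a second chaperone pair, was highest at 6 h in both genotypes (103 from 67.3 at 0 h in WT, and 114 from 75.2 in Arntl-/- cells). Its log2 change at 6 h was 0.61 and 0.60, and 0.56 (short of 1.5-fold) and 0.64 after level correction. Its level at 24 h was 95.9 in WT but 62.7 in Arntl-/- cells. Psmf1, which inhibits the core in vitro, was at 68.9, 65.9, 45.8 and 58.6 in WT and at 59.4, 54.4, 47.0 and 53.8 in Arntl-/- cells, lowest at 24 h in both, with a WT change at 24 h of -0.59 (-0.81 to -0.37).

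Of the 3 members below the filter, Psmb11, the catalytic subunit of the thymus, had 0 reads in every library, which allows up to 3 reads a library. Psma8, an alpha subunit of the testis, had 12 to 64 reads and a scaled FPKM of 5.55 to 10.0. Psmg4, the partner of Psmg3, was at 129 to 154 in 7 libraries and at 70.6 in Arntl-/- cells at 48 h, from 43 reads. Its transcript is 474 bases long, and the filter weighed the level by length.

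Between the genotypes no inducible gene differed by 1.5-fold at any time. Before KLA, 2.18% of all genes were at least 1.5-fold higher and 1.58% lower in Arntl-/- cells. After 6 h these shares were 1.88% and 1.78%, after 24 h 2.61% and 2.2%, and after 48 h 4.27% and 4.91%. Among the other members 0 passed at 0, 6 and 48 h and 1 of 40 at 24 h (Psmg3, lower, log2 -0.61, -0.97 to -0.25), which was short of 1.5-fold as deposited (-0.56) and with length correction (-0.52). At 0 h, 0 of 5 inducible genes and 5 of 40 others were above WT in Arntl-/- cells, beside 47.0% of all genes, whereas at 6 h all 5 and 32 of 40 were, beside 52.5%. Level-corrected, 0 of 5 and 11 of 40 were above at 0 h, and 5 of 5 and 20 of 40 at 6 h. The medians of the inducible genes were, in order of time, -0.18, 0.37, 0.01 and -0.05, and those of the others -0.14, 0.18, -0.13 and -0.14.

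For the 972 most highly expressed genes, the median deviation in the Arntl-/- library minus that in the WT library was -0.20, 0.35, -0.16 and -0.05 in order of time, and its part in these differences was not tested. Level-corrected, the inducible medians between genotypes were -0.03, 0.04, 0.13 and -0.01, and those of the others -0.07, 0.00, -0.07 and -0.12. At 6 h the 5 inducible genes differed by 0.16 (Psmb9) to 0.41 (Psme2). Level-corrected, Psmb10 differed by 0.27 and the other 4 by 0.01 to 0.11. None of the 5 inducible genes had the same sign of difference at all 4 times. Of the others, 0 of 40 were higher and 2 of 40 (Psmc6 and Psmg2) lower in Arntl-/- cells at all 4 times, beside 7.82% and 7.53% of all genes. For 0 of 45 members did the 4 Arntl-/- libraries lie wholly above or wholly below the 4 WT libraries, beside 0.638% and 0.556% of all genes.

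Other genes of the pathway were taken from 4 lists, whose counts are to be read against the shares of all genes that were at least 1.5-fold higher after 6, 24 and 48 h: 4.31, 7.94 and 12.7% in WT and 2.79, 7.35 and 14.8% in Arntl-/- cells. For genes that were lower the shares were 3.29, 7.91 and 14.3% in WT and 2.58, 8.65 and 16.7% in Arntl-/- cells. For MHC class I peptide supply and loading (12 genes), 0, 1 and 5 genes were past 1.5-fold higher after 6, 24 and 48 h in WT, against 0, 1 and 6 in Arntl-/- cells, with 1 lower at 6 h in WT (Lnpep) and 1 lower at 48 h in Arntl-/- cells (Erap1, log2 -0.65, and -0.57 after level correction, short of 1.5-fold). Tapbp, the tapasin that edits peptides on class I molecules, was at 640.2, 651, 989 and 1529 in WT and at 597, 803, 968 and 1421 in Arntl-/- cells, with log2 changes at 48 h of 1.26 and 1.25, and 0.96 and 0.81 after level correction. Tap1, which shares its start region with Psmb9, was at 319 at 0 h and 417 at 48 h in WT and at 332 and 437 in Arntl-/- cells (log2 0.39 in both). Tap2 changed by 0.80 and 0.72. B2m, H2-D1 and Calr also passed at 48 h in both genotypes, but none of these 3 did after level correction, when 2 of 12 genes were left in WT (Tap2 and Tapbp) and 1 in Arntl-/- cells (Tapbp), beside 12.4% and 13.5% of all genes.

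Among 7 transcription factors and their processing enzymes, Irf1, which is known to act on Psmb8, Psmb9 and Tap1, was at 177, 232, 271 and 254 in WT and at 217, 228, 309 and 259 in Arntl-/- cells, past 1.5-fold at 24 h in WT cells (log2 0.61). Nfe2l1, the factor that restores proteasome genes when the complex is inhibited, changed by 0.62 in both genotypes at 48 h, and Nfe2l2 by 0.52 in WT and 0.74 in Arntl-/- cells. In all, 0, 2 and 1 of the 7 were past 1.5-fold higher at 6, 24 and 48 h in WT and 0, 1 and 2 in Arntl-/- cells, and 1 (Ngly1, at 48 h in WT cells) was lower. These counts are too small to be set apart from the shares of all genes. Level-corrected, 2 of 7 were higher at 24 h in WT cells (Nfe2l2 and Irf1) and none were at 48 h in either genotype.

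Of 7 ubiquitin genes and activating enzymes, 1, 1 and 3 were past 1.5-fold higher at 6, 24 and 48 h in WT and 0, 1 and 4 in Arntl-/- cells, and 2, 0 and 0 and 0, 0 and 1 were lower. Uba7, the activating enzyme of the ubiquitin-like modifier Isg15, was at 159, 314, 295 and 392 in WT and at 202, 299.9, 331 and 441 in Arntl-/- cells (log2 1.30 and 1.13 at 48 h), and it was the one gene of this list past 1.5-fold at 48 h after level correction. Of 12 partners and assembly factors found among 14 names searched, 0 were past 1.5-fold higher in any of the 6 comparisons with 0 h, and 3 were lower in at least 1 (Shfm1, Uchl5 and Usp14). Shfm1, lower at 6 h in WT cells by log2 -0.59, was at -0.22 after level correction. Uchl5, a deubiquitinase of the regulatory particle, was at 281, 206, 193 and 158 in WT and at 242, 235, 160.4 and 115 in Arntl-/- cells, lower at 48 h by log2 -0.83 and -1.08. Pomp, the maturation factor of the core, was at 845 at 0 h and 925 at 48 h in WT and at 677 and 807.5 in Arntl-/- cells.

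Members were left out of the search for genes whose profile over the 8 libraries was most like the mean standardized profile of the 5 inducible genes. The most alike were Mpnd (Pearson's r = 0.983), Myeov2 (0.976), Hsbp1 (0.969), BC005624 (0.968), Snf8 (0.965), Myadm (0.963), Mrpl14 (0.960), Cars (0.960), Chst12 (0.958) and Arl3 (0.956). These are descriptions over 8 libraries. Of all genes analysed, 9.48% had an r over 0.8, and after level correction r was 0.241 for Myadm and 0.818 to 0.946 for the other 9. Among the 40 other members, 12 had an r over 0.8, led by Psmb6 (0.953), and 13 had an r below 0, with Psmg2 lowest (-0.757), beside 49.9% of all genes below 0. After level correction 0 of the 40 had an r over 0.8, and those 12 had 0.167 to 0.771.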

How the data were processed

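PolyA RNA of BMDMs was sequenced paired-end, in 8 libraries, 1 for each genotype and time. The authors aligned the reads to mm9 with STAR and counted them with HOMER over the exons of RefSeq genes, on both strands, with at most 3 tags per position and isoforms condensed to genes. The deposited values are FPKM, scaled per the file headers to 10000000 reads. Of the 12 value columns 4 matched no sample and were not used, 1 line that names no gene was left out, and 29 ChIP and input samples were not analysed here.

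Low FPKM values were whole multiples of 1 read (100% within a tolerance of 0.05), which gave the reads behind each value. Each library's FPKM were divided by its size factor (median of ratios), and changes are differences of log2(scaled FPKM + 0.1), which understates changes of low genes. Genes analysed were those highest in the product of scaled FPKM and length, taken at its maximum over the WT libraries. With 1 library per condition no test was run: genes past 1.5-fold were counted beside all genes analysed. The 95% intervals are exact Clopper-Pearson intervals and cover counting error only, as does the floor of 3 reads for a count of 0. Level correction subtracted a lowess trend (fraction 0.3) of each library's deviation on mean level. All members are described by role, with 4 pathway lists and the 10 genes most like the inducible mean profile. The members and lists were chosen with earlier results of these data known, and the count over both 48 h libraries and the PA28 ratio with their alternatives were chosen after seeing the data. Promoters were read from the mm9 genome, and shared 50-base stretches from GENCODE protein-coding transcripts. Copies of members outside these transcripts were not searched. Some genes of the marker and pathway lists are not reported here. In all, 9 other settings were tried. The steps were tested on simulated data and run in Python 3.11.15 with scipy 1.17.1 (intervals), statsmodels 0.14.6 (lowess), pandas 2.3.3 and numpy 2.4.6.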

Additional observations from a re-analysis of the deposited data

Results flagged for a closer look

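Some changes with KLA had opposite signs in the 2 genotypes. With 1 library per condition these differences were not tested. At 6 h against 0 h the log2 change in Arntl-/- cells minus that in WT cells was 0.67 for Psmb8, 0.34 for Psmb9, 0.52 for Psme1 and 0.59 for Psme2. It was 0.39 for the median of the 5 inducible genes and 0.34 for the median of the 40 other members. At 24 h it was 0.31 for Psmb9 and 0.081 for the median of the other members. At 6 h in WT cells the counting intervals of Psmb9 (-0.22 to 0.04) and Psme2 (-0.15 to 0.06) included 0. That of Psmb9 at 24 h in Arntl-/- cells did too (-0.04 to 0.25), so these signs are uncertain. After level correction the differences at 6 h were 0.15 for Psmb8, 0.11 for Psmb9, 0.06 for Psme1, 0.12 for Psme2, 0.11 for the inducible median and 0.05 for the other median, and the signs were opposite for Psmb8 only (-0.04 in WT and 0.12 in Arntl-/- cells). At 24 h they were 0.26 for Psmb9, with signs still opposite (-0.24 and 0.02), and 0.02 for the other median, with both genotypes below 0 (-0.09 and -0.06). The WT library at 6 h was the deepest, with 27036783 reads on genes, and there the 972 most highly expressed genes had a median log2 deviation of -0.36.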

How the results depend on the processing

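Of the counts, shares and ratios recomputed for the main comparisons, 167 moved by less than their limits and 37 by more. Small medians changed sign. The inducible median at 6 h in WT cells (-0.09) became 0.04 with level correction, 0.09 with length correction and 0.07 as deposited. The median of the other members at 48 h in WT, at 24 h and at 48 h in Arntl-/- cells (0.11, 0.05 and 0.14) became -0.03, -0.06 and -0.05 with level correction and -0.02, -0.02 and -0.03 as deposited. The counts of other members past 1.5-fold were as follows. Level correction gave 0 at 6 and 24 h and 1 at 48 h in WT cells, and 0 at 24 h and 2 at 48 h in Arntl-/- cells. Correction for gene length gave 0 at 24 h and 2 at 48 h in WT, 0 at 6 and 24 h and 2 at 48 h in Arntl-/- cells, and 0 between genotypes at 24 h. Values as deposited gave 1 at 48 h in WT, 0 at 6 and 24 h and 2 at 48 h in Arntl-/- cells, and 0 between genotypes at 24 h. Upper-quartile scaling gave 2 at 48 h in WT and 0, 0 and 2 at 6, 24 and 48 h in Arntl-/- cells. A pseudocount of 1 gave 0 at 24 h and 2 at 48 h in WT cells. Genes with an FPKM of at least 1 (42 other members) gave 2 at 6 h and 5 at 48 h in Arntl-/- cells and 1 and 2 between genotypes at 0 and 48 h. Genes chosen by the mean of 8 libraries (41 other members) gave 5 at 48 h in Arntl-/- cells and 1 between genotypes at 48 h. The count of inducible genes became 0 at 48 h in WT cells under the level and length corrections, and 0 at 6 h in Arntl-/- cells under these, as deposited and with upper-quartile scaling. At 48 h in Arntl-/- cells it became 2 under these 4 settings, without Psmb8.

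In Arntl-/- cells, level correction gave a 48 h difference in share of -3.98 points for Psmb9 and 14.4 for Psmb10. Both 48 h libraries were above the other 6 for 5 other members after level correction and for 4 as deposited, and below for 6 after level correction and for 7 as deposited, when 11.1% of all genes were above and 28.3% below (16.4% above with level correction). The log2 change of the PA28 ratio was 0.68 in WT and 0.84 in Arntl-/- cells after level correction and 0.85 in Arntl-/- cells after length correction. A fit that pairs the genotypes by time was not run. Leaving the WT library at 6 h out of the size factors moved none of the 16 values recomputed so past its limit. Counting error alone is covered, so variation between mice and cultures is unknown.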

Other observations

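The 2 genes whose symbols extend a member's name behaved differently from the subunits. Psmc3ip, a meiotic recombination factor and no proteasome subunit, was at 114, 92.6, 35.4 and 17.9 in WT cells at 0, 6, 24 and 48 h and at 106, 83.0, 54.4 and 9.71 in Arntl-/- cells, with log2 changes at 48 h of -2.67 (-3.36 to -2.05) and -3.43 (-4.41 to -2.62). Psme2b was above every WT library in all 4 Arntl-/- libraries (161 to 193 against 113 to 134.5), which was the case for 0.638% of all genes analysed. As its transcript shares stretches with that of Psme2, reads of the pair may be split or shared. The level of Psme2b is therefore uncertain as well. Psmc3ip and Psme2b were singled out after their values were seen.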
